A study of Mus musculus with 5 samples.

Results

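Pulmonary surfactant genes were followed in single-cell RNA counts of embryonic mouse lung. The group comprised 10 of the 32285 genes measured, taken by symbol: the surfactant proteins Sftpa1, Sftpb, Sftpc and Sftpd, the lamellar body genes Abca3 and Lamp3, the phosphate transporter Slc34a2, the proteases Napsa and Ctsh, and the lipid enzyme Lpcat1. All 10 symbols were found once in each of the 5 libraries. Each library came from the dissociated lungs of 1 mouse embryo at E18.5, with 2 Zswim8+/- embryos (Het1 and Het2) and 3 Zswim8-/- embryos (KO1, KO2 and KO3). Zswim8 encodes a substrate receptor of a ubiquitin ligase that takes part in the decay of some microRNAs. The labels name no strain, no promoter or Cre, no treatment and no allele beyond the genotype, and no wild-type group is analysed here. The contrast is therefore Zswim8-/- against Zswim8+/- embryos, and all 5 carry at least 1 altered copy by their labels.

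Surfactant is a film of phospholipid and protein that lowers surface tension in the air space, and it is made by the alveolar type 2 (AT2) cell of the lung epithelium. Its lipids and hydrophobic proteins are packed into lamellar bodies, organelles related to lysosomes, and are secreted by exocytosis around birth. Sftpb and Sftpc encode the hydrophobic proteins of the film, and Sftpa1 and Sftpd encode collectins, soluble proteins that bind microbial sugars. Abca3 pumps phospholipid into the lamellar body, Lpcat1 remodels lysophosphatidylcholine into the saturated phosphatidylcholine of surfactant, and Lamp3 is a protein of the lamellar body membrane. Napsa and Ctsh are proteases that cut the Sftpb and Sftpc precursors, and Slc34a2 takes up phosphate released from surfactant lipid.

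Total depth ranged from 56608582 to 93708304 unique molecular identifiers (UMIs) per library, and 3051 to 4634 cells per library were kept. Barcodes in common between 2 libraries numbered 17 to 44, of which 0 to 7 were kept cells in both. Y-linked and Xist counts showed Het1, Het2 and KO3 to be male and KO1 and KO2 to be female, so the female embryos were all in the KO group. Values per library are given below in the order Het1 and Het2, then KO1, KO2 and KO3, with "against" between the groups. The Zswim8 level over all kept cells was 36.9 and 38.6 CPM (UMIs of the gene per 1000000 UMIs of the sum) against 38.2, 38.8 and 40.0 CPM (log2 fold change 0.05, SE 0.06, edgeR adjusted p 0.632). The kit reads only transcript ends, and the change made to Zswim8 is not stated, so this level does not check the labels, and the libraries are called KO-labelled below. No label says that embryos came from separate litters, so p-values refer to these embryos only. The edgeR p-values take the spread of a gene in part from all genes tested.

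The genes lie on 8 chromosomes (GRCm38, coordinates counted from 1), and each is a protein-coding gene given here with its whole span. Sftpa1 (chr14:41131782-41136452, plus strand) and Sftpd (chr14:41172214-41185149, minus strand) are neighbours separated by 35761 bases. Sftpc lies elsewhere on the same chromosome (chr14:70520949-70524081, minus strand). Sftpb is at chr6:72304610-72314371 (plus strand), Abca3 at chr17:24351950-24410201 (plus), Lamp3 at chr16:19653378-19706375 (minus) and Slc34a2 at chr5:53038081-53071664 (plus). Napsa is at chr7:44572380-44586862 (plus), Lpcat1 at chr13:73467197-73516422 (plus) and Ctsh at chr9:90054152-90076089 (plus). Abca3, Slc34a2 and Napsa are overlapped on the opposite strand by other annotated genes, and whether counting used strand is not given in the sources used here. The gene identifiers in the files are Sftpa1 ENSMUSG00000021789, Sftpb ENSMUSG00000056370, Sftpc ENSMUSG00000022097, Sftpd ENSMUSG00000021795, Abca3 ENSMUSG00000024130, Lamp3 ENSMUSG00000041247, Slc34a2 ENSMUSG00000029188, Napsa ENSMUSG00000002204, Lpcat1 ENSMUSG00000021608 and Ctsh ENSMUSG00000032359.

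The proximal promoters of Sftpb, Sftpa1 and Lamp3 are shown because these genes were each called lower in the AT2-like cells described below and because each holds letters of a factor known in lung epithelium. NKX2-1 and forkhead factors such as FOXA1 and FOXA2 are regulators of surfactant genes. Searched on both strands were the NKX2-1 core CTCAAG and the forkhead letters TGTTTNC, which do not overlap each other. The sequences are the 250 bases before the RefSeq transcript start (GRCm38.p6), 5′ to 3′ on the strand of the gene, with the matches in capitals.
Sftpb (chr6:72304360-72304609, plus strand): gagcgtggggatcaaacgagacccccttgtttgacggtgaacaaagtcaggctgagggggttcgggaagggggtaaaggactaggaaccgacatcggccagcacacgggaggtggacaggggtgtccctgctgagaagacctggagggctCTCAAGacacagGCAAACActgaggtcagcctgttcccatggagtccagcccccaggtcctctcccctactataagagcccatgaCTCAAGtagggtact
Sftpa1 (chr14:41131538-41131787, plus strand): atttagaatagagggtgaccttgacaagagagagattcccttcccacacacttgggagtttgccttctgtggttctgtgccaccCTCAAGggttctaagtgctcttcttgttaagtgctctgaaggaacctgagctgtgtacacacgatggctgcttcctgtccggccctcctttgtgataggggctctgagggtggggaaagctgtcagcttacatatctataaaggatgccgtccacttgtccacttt
Lamp3 (chr16:19706366-19706615, minus strand): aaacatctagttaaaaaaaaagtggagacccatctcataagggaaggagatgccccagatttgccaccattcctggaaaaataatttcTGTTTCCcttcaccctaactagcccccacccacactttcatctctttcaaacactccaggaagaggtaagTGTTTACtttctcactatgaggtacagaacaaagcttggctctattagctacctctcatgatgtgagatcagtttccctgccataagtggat

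Sftpb held the NKX2-1 core at 100 to 95 and at 15 to 10 bases before its start, and a forkhead match on the opposite strand, GCAAACA, at 88 to 82 bases. Sftpa1 held 1 NKX2-1 core, at 166 to 161 bases. Lamp3 held 2 forkhead matches, at 162 to 156 and at 92 to 86 bases. Of 32851 promoter windows of this length, 13.3% held the NKX2-1 core, 17.8% the forkhead letters and 2.50% both. The windows of Abca3, Slc34a2 and Lpcat1 held neither set of letters. The Slc34a2 window (chr5:53049103-53049352) lies inside the gene span given above, so the bases before the start of that span were not searched. RefSeq windows were matched for these 6 of the 10 genes. Sftpc, Sftpd, Napsa and Ctsh were not matched. A match is a run of letters and not a shown binding site.

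Cells were grouped by clustering without the 10 genes, and a cluster was named from marker lists that hold none of them. The AT2-like class held 212 and 125 cells against 59, 42 and 93 cells. Its median depth was 14776 and 15812 UMIs per cell against 4383, 12473 and 14571 UMIs, so KO1 was the shallow library. A further 525 epithelial cells carried both AT2 and alveolar type 1 (AT1) markers and were kept apart as cells with both marker sets. They came from 3 clusters that split by genotype: the Zmynd15 and Fbn2 cluster held 12 and 19 cells against 79, 92 and 97, the Fabp12 and Lrp2 cluster 46 and 44 against 10, 4 and 22, and a cycling cluster 1 and 8 against 17, 36 and 38. All 14 AT2 markers had UMIs in the AT2-like class. The epithelial cells also included clusters without a name. Of these, 1 was led by endothelial genes (272 cells, 3.57 times the median depth of their libraries) and 1 by Gucy1a1 and Pdgfrb, pericyte genes (118 cells, 7.97 times), and each was positive for 13 of the 14 AT2 markers.

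In AT2-like cells the 10 genes together made up 12.4% ± 2.58 of all UMIs (SD, n = 5 libraries), against 5.77% ± 1.95 in cells with both marker sets and 0.0519% ± 0.0126 in the mesenchymal lineage. The share in AT2-like cells was 14.7% and 15.7% against 10.5%, 10.3% and 10.8%. Every one of the 10 genes had its highest mean level in the AT2-like class among the 9 classes measured and the free RNA. Levels by class are a description, since the classes were rebuilt from the same cells. The counts come from the transcript end without a length, so levels are compared between classes for 1 gene and never between genes.

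Sftpc, the hydrophobic protein specific to AT2 cells, reached 105030 CPM ± 23194 (SD, n = 5) in AT2-like cells and 47998 ± 16593 in cells with both marker sets. Free RNA, with haemoglobin left out of its total, came next at 6343 CPM ± 1835. On that scale it lay above AT1-like cells at 3207 ± 1192 and the mesenchymal lineage at 382 ± 98.6. The ranges of AT2-like cells, cells with both marker sets, free RNA and AT1-like cells did not overlap. From AT1-like cells downward each neighbouring pair of classes overlapped.

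Sftpa1 followed the same order at the top, with 5289 CPM ± 789 in AT2-like cells, 1972 ± 755 in cells with both marker sets and 312 ± 165 in free RNA. Slc34a2 stood at 2374 CPM ± 499.9, 1105 ± 485 and 121 ± 22.0 in the same 3 places. Lamp3 stood at 917 CPM ± 123, 413 ± 158 and 74.7 ± 13.2. For these 3 genes, as for Sftpc, free RNA in CPM lay above every named class outside the AT2-like cells and the cells with both marker sets. Among these 4 genes the drop in mean CPM from free RNA to the next class was largest for Lamp3, at 4.63 times. The cell classes keep haemoglobin in their totals and the free RNA does not, so this order does not hold for UMIs per barcode. Per barcode, free RNA held 2.87 Sftpc UMIs, against 36.3 in AT1-like, 30.7 in club-like and 40.0 in ciliated-like cells.

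The other genes had a second class of cells above or near the free RNA. Sftpb was at 4116 CPM ± 776 in AT2-like cells and at 508 ± 102 in club-like cells, secretory cells of the airway, where it overlapped with the free RNA (319 ± 56.3). Sftpd reached 690.5 CPM ± 259 in AT2-like cells, 351 ± 165 in club-like cells, 343 ± 218 in cells with both marker sets and 166 ± 95.0 in ciliated-like cells, and each neighbouring pair among these overlapped. Abca3 was at 712 CPM ± 71.8 in AT2-like cells, 111 ± 16.1 in club-like cells and 43.0 ± 6.31 in the endothelial lineage. Sftpd and Sftpb were thus measured in airway cells as well as in the alveolar cells.

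Ctsh, a cathepsin of the lysosome, stood at 2324 CPM ± 199.9 in AT2-like cells, 2033 ± 322 in cells with both marker sets and 1779 ± 279 in AT1-like cells, and each neighbouring pair overlapped. Macrophage-like cells had 435 ± 19.2 CPM of Ctsh, above the free RNA at 299.6 ± 51.5 with no overlap. Napsa, an aspartic protease, was at 1576 CPM ± 123 in AT2-like cells, 313 ± 51.3 in AT1-like cells and 121 ± 10.2 in neutrophil-like cells. Lpcat1 was at 1136 CPM ± 143 in AT2-like cells, 661 ± 121 in cells with both marker sets, 133 ± 39.8 in free RNA and 111 ± 14.7 in AT1-like cells.

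**Figure D1:**
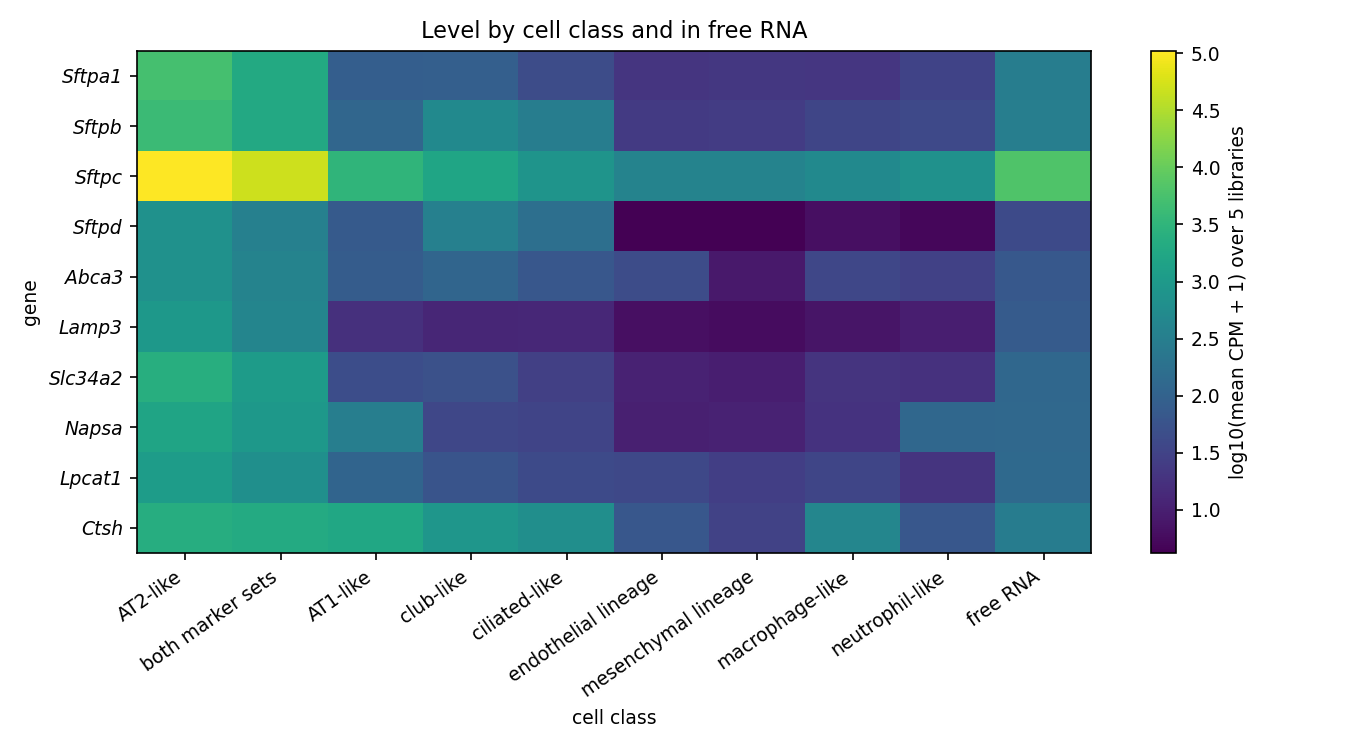
Mean level of each gene (rows) in each cell class and in free RNA (columns), as the log10 of mean CPM plus 1 over 5 libraries. The total of the free RNA leaves out haemoglobin, and the totals of the cell classes keep it. The AT2-like column is the brightest in every row, Sftpc is above 300 CPM in every column, and Ctsh and Napsa are also bright in AT1-like cells.

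Free RNA in droplets gives a low share of any abundant transcript to all cells, so the genes were also set against Sftpc. Red-cell barcodes, in which haemoglobin took more than 50% of UMIs and fewer than 500 genes were seen, served as the measure of free RNA, with haemoglobin genes left out. They held 4.85 Ctsh UMIs per 100 Sftpc UMIs (range over libraries 3.88 to 5.86), 2.04 of Napsa (1.77 to 2.52), 5.16 of Sftpb (4.25 to 6.27) and 0.623 of Sftpd (0.409 to 0.948). A class that received these genes from the same source would hold them in the same ratio.

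AT1-like cells held 62.0 Ctsh UMIs per 100 Sftpc UMIs (36.1 to 89.96) and 11.3 of Napsa (6.58 to 21.2), above the free RNA in every library. Sftpb in AT1-like cells, at 3.53 (1.93 to 4.87), lay within or below the range of the free RNA. Club-like cells held 59.1 of Sftpb (15.3 to 134) and 41.5 of Sftpd (6.59 to 111). Macrophage-like cells held 104 of Ctsh (42.2 to 157). The endothelial lineage held 12.6 of Abca3 (7.29 to 17.9) against 1.06 (0.783 to 1.36) in the free RNA, and 10.8 of Lpcat1 (6.56 to 13.98) against 2.16 (1.54 to 2.93). The ratios therefore differed between classes for Ctsh, Napsa, Sftpb, Sftpd, Abca3 and Lpcat1, with ranges that did not overlap those of the free RNA. For Sftpa1 the ratio was 5.23 in the mesenchymal lineage and 4.72 in the free RNA, and for Slc34a2 it was 2.32 and 1.95, with overlapping ranges.

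**Figure D2:**
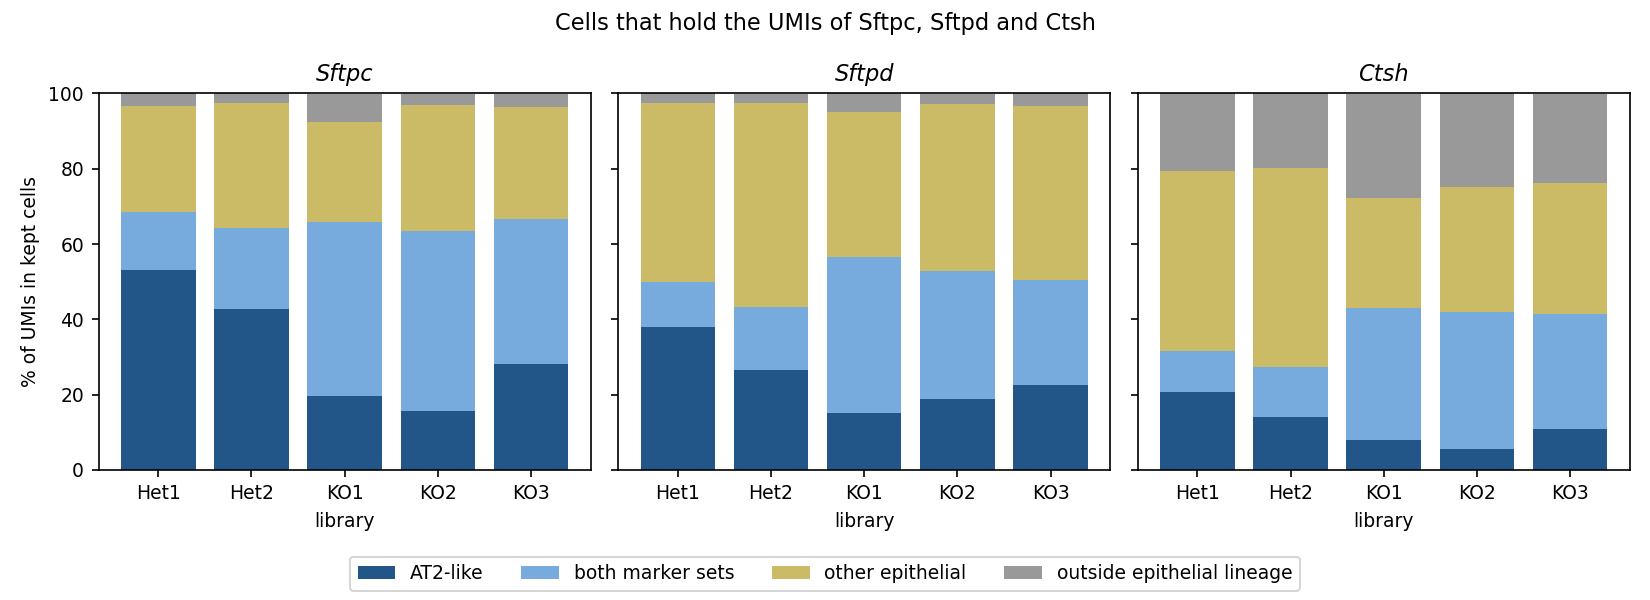
Share of the UMIs of Sftpc, Sftpd and Ctsh in kept cells (vertical axis, %) held by AT2-like cells, cells with both marker sets, other epithelial cells and cells outside the epithelial lineage, 1 bar per library. AT2-like cells held 42.7% to 53.2% of Sftpc UMIs in the Het bars and 15.5% to 28.2% in the KO-labelled bars. Other epithelial cells include the unnamed clusters as well as AT1-like, club-like and ciliated-like cells.

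The cells that held the UMIs differed between the genotypes. AT2-like cells held 53.2% and 42.7% of the Sftpc UMIs of kept cells in Het1 and Het2, and from 15.5% to 28.2% in the KO-labelled libraries. Cells with both marker sets held 15.4% and 21.5% in the Het libraries and 38.5% to 47.98% in the KO-labelled ones. Sftpd was spread more widely, with 50.8% of its UMIs in other epithelial cells in the Het mean and 43.0% in the KO-labelled mean. Other epithelial cells are here the AT1-like, club-like and ciliated-like cells and the unnamed clusters. The unnamed clusters include the deep ones led by endothelial and by pericyte genes. This share is therefore not one of AT1 and airway cells alone, and it was not split further. Of Ctsh UMIs, 20.2% and 25.5% lay outside the epithelial lineage. Red-cell barcodes held 1.17% to 2.21% of all Sftpc UMIs.

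These shares moved with the number of cells. AT2-like cells were 4.57% and 3.08% of kept cells against 1.93%, 1.30% and 2.39%. The difference was -1.95 percentage points with an exact two-sided permutation p of 0.1, which is the smallest p that 2 against 3 libraries allow. As a share of epithelial cells alone, AT2-like cells were 21.9% and 17.1% against 16.9%, 11.2% and 20.35%. With that denominator the groups overlapped, so the lack of overlap held only for the share of all kept cells. Cells with both marker sets were 6.11% and 9.71% of epithelial cells against 30.4%, 35.2% and 34.4%. The AT2-like class was itself made of 2 clusters. The cluster led by Retnla, Lyz1 and Lyz2 held 178 and 108 Het cells but 10, 10 and 37 KO-labelled cells, and the cluster led by Acss3 and Epha7 held 34 and 17 Het cells and 49, 32 and 56 KO-labelled cells.

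The first comparison asked how the 10 genes differed between the genotypes within the AT2-like class, from UMI sums per library. All 10 stood lower in each KO-labelled library than in each Het library, and 8 of the 10 passed an edgeR adjusted p of 0.05. Of the 9432 genes tested, 6.63% were called, 3.77% were called lower and 18.4% were lower without overlap of the groups. The median log2 fold change was -0.45 over the 10 genes and 0.02 over all genes tested. The CPM values of this comparison use library sizes scaled by the trimmed mean of M values (TMM). In CPM without TMM, Sftpa1 overlapped, at 5677 in KO1 and 5626 in Het1, and the other 9 genes did not.

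Among the surfactant proteins, Sftpc stood at 135850 and 143080 CPM against 86283, 83787 and 86669 CPM. The 3 KO-labelled values lay within a narrow band far below both Het values. Its log2 fold change was -0.70, SE 0.04, with an edgeR adjusted p of 2.1e-12. Sftpb, which is needed for the film to form, stood at 5269 and 5266.5 CPM against 3761, 3044 and 3621 CPM. It fell by 0.60 on the log2 scale (SE 0.09, edgeR adjusted p 6.2e-05).

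Sftpd had the largest change of the 10 genes, at 1018 and 1058 CPM against 522, 541 and 407 CPM. Each KO-labelled value of this collectin was far below either Het value. Its log2 fold change was -1.09, SE 0.12, with an edgeR adjusted p of 9.6e-07. Sftpa1, the collectin encoded next to it, stood at 6064 and 6520 CPM against 5640, 3957 and 4681 CPM, with KO1 close to Het1. Its log2 fold change was -0.40, SE 0.10, with an edgeR adjusted p of 0.0133.

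Slc34a2, the phosphate transporter, stood at 3158 and 3090.2 CPM against 2076, 1823 and 1959.5 CPM, a log2 fold change of -0.68 (SE 0.09, edgeR adjusted p 1.8e-05). Lamp3 of the lamellar body membrane stood at 1111 and 1121 CPM against 754, 825 and 843 CPM, with a log2 fold change of -0.46 (SE 0.11, adjusted p 0.00714). Lpcat1, the enzyme of saturated phosphatidylcholine, stood at 1381 and 1359 CPM against 1129, 938 and 964 CPM, with a log2 fold change of -0.44 (SE 0.11, adjusted p 0.0119). For each of the 3 genes the Het libraries lay close to each other and above every KO-labelled library.

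Ctsh stood at 2522 and 2826 CPM against 2121, 2205 and 2098 CPM (log2 fold change -0.32, SE 0.09, edgeR adjusted p 0.0354). Abca3, the lipid pump, stood at 829 and 821 CPM against 743, 636 and 583 CPM (log2 fold change -0.34, SE 0.12, adjusted p 0.0886). Napsa stood at 1758 and 1848 CPM against 1599, 1373 and 1411 CPM (log2 fold change -0.30, SE 0.10, adjusted p 0.0724). Abca3 and Napsa did not pass the threshold, though their groups did not overlap.

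**Figure D3:**
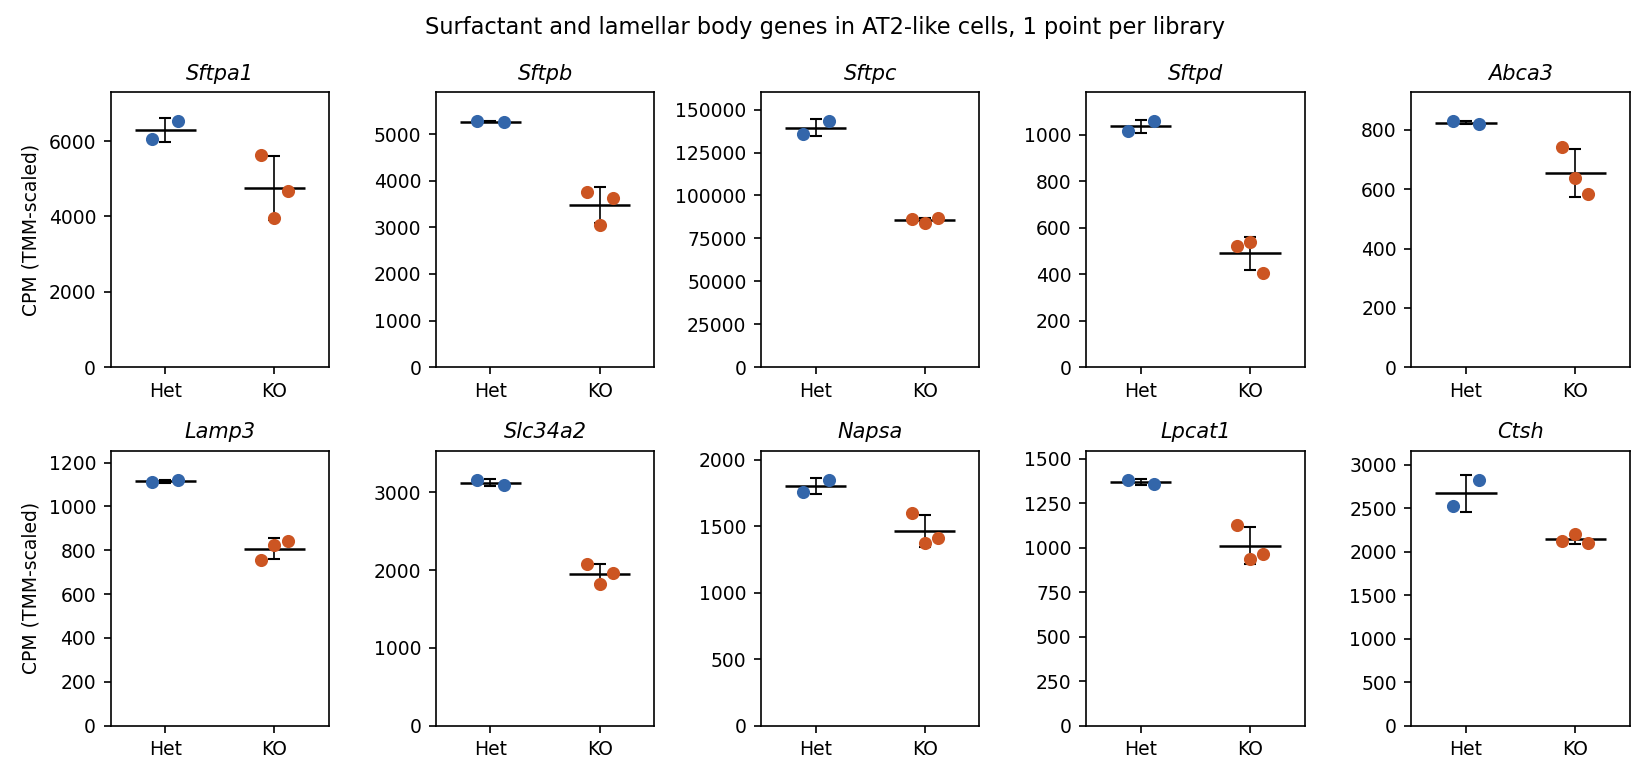
Level of each of the 10 genes in AT2-like cells (TMM-scaled CPM, linear axis from 0) in 2 Het libraries and 3 KO-labelled libraries, 1 point per library, with bars at the mean and whiskers of 1 SD. All KO-labelled points lie below both Het points in each panel, by the largest fold for Sftpd.

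Sftpb, Sftpc, Sftpd and Slc34a2 passed the threshold in 19 of 20 alternative settings, and the other 6 genes in 4 to 13. With scaling by library size alone the median of all genes moved to 0.17 and the share of calls that were higher went from 43.0% to 74.1%. All 10 surfactant genes were still lower under that scaling, and those 4 were called. With embryo sex as a covariate the same 4 were called. Without KO1, the shallow library, all 10 were called. Without Het1 or without Het2 the calls of Lamp3, Lpcat1 and Ctsh were lost, without KO2 those of Sftpa1, Lpcat1 and Ctsh, and without KO3 those of Sftpa1 and Ctsh.

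The result depended on which cells were taken as AT2-like, and these settings were chosen after seeing the data. In the Acss3 cluster alone, 6 of the 10 genes were called lower (Sftpb, Sftpc, Sftpd, Slc34a2, Napsa and Ctsh) while 0.525% of all genes tested were called lower. That cluster held 17 cells in Het2, below the minimum of 20 used for the cell classes, and at least 32 in each other library. There Sftpd was at 841 and 866 CPM, before TMM scaling, in the Het libraries and at 417, 265 and 334 CPM in the KO-labelled libraries, a log2 fold change of -1.48 (SE 0.18, edgeR adjusted p 4.6e-07). Sftpa1 did not follow, with a log2 fold change of 0.04 (SE 0.14, adjusted p 0.963). In the Retnla cluster the KO-labelled mean was lower for 6 of the 10 genes, and Sftpd was at 959 and 1008 CPM against 1008, 1431 and 586 CPM. Only 10 cells lay behind each of the KO1 and KO2 values of that cluster, and it was not tested.

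With the cells of both marker sets added to the AT2-like cells, all 10 genes were called lower, as were 7.64% of genes, and the log2 fold change of Sftpc was -1.35 and that of Sftpd -1.91. The added cells sat in different clusters by genotype, and inside those clusters the KO-labelled mean was lower for 1 of 10 genes (Zmynd15 cluster), 8 of 10 (Fabp12 cluster) and 2 of 10 (cycling cluster). With all epithelial cells summed, 0 of the 10 were called, while 5.7% of genes were called lower, and 1 of the 10 (Sftpd) had an unadjusted p under 0.05. Sftpd then had a log2 fold change of -1.002 (SE 0.28, edgeR adjusted p 0.0655), and Sftpc one of -0.23 (SE 0.17, adjusted p 0.433). The size of the difference thus varied with the set of cells. Sftpd had a point estimate below 0 in all 4 fitted sets and passed in all but the sum of all epithelial cells.

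Other markers moved with the genotype inside the AT2-like class. The summed level of the 14 AT2 markers was 16467 to 17535 CPM in the Het libraries and 7786 to 9658.5 CPM in the KO-labelled ones. The 12 AT1 markers summed to 775 to 784 CPM and to 978 to 1307 CPM, and the 8 cycling markers to 15.2 to 17.2 CPM and to 41.1 to 73.4 CPM. Erythroid markers, 7 of 8 with UMIs and Hemgn at 0, summed to 10276 to 16738 CPM and to 2614 to 9925 CPM. The 11 epithelial lineage markers summed to 2380 to 2590 CPM in the Het libraries and to 2887 to 3239 CPM in the KO-labelled ones. Endothelial, mesenchymal, macrophage and lymphoid marker sums were at most 95.5 CPM in every library, with Cd3e at 0. The 8 neutrophil markers summed to 70.2 to 103 CPM in the Het libraries and to 44.2 to 66.1 CPM in the KO-labelled ones, without overlap, and the 9 immune lineage markers to 152 to 197 CPM and to 155 to 170.3 CPM. Their part in the result was not tested. Subtracting the free RNA left the same 8 of 10 genes called. The amount taken off was that of a red-cell barcode, 2.87 Sftpc and 0.0199 Sftpd UMIs, against 1788 and 12.3 per AT2-like cell. So small an amount could hardly change the calls, and the subtraction does not test carry-over from other cells.

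The share of AT2-like cells with at least 1 UMI was compared after each cell was thinned to 2000 UMIs, which left out 2 cells in each Het library and 14, 7 and 3 cells in KO1, KO2 and KO3. For Sftpd this share was 69.0% and 72.4% against 48.9%, 40.0% and 35.6%. The difference was -29.2 percentage points, with an exact permutation p of 0.1, the smallest possible here. The background in mesenchymal cells, with median depths of 9714.5 to 11980.0 UMIs, was 0.262% to 1.14%, and the unthinned shares were 94.8% and 94.4% against 55.9%, 64.3% and 78.5%. Sftpc was found in 100% of thinned AT2-like cells in all 5 libraries, but also in 35.5% to 61.0% of thinned mesenchymal cells. For Lamp3 the shares were 81.4% and 87.0% in the Het libraries and at most 80% in the KO-labelled ones (exact permutation p of 0.1), against 0.418% to 1.82% in mesenchymal cells. For Abca3 the groups overlapped, with 62.9% to 77.8% over all libraries (exact permutation p of 1.0) and 1.44% to 2.20% in mesenchymal cells. Both readings changed with thinning to 1000 UMIs, where Lamp3 overlapped (exact permutation p of 0.4) and Abca3 did not (exact permutation p of 0.1).

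Within a library the 10 genes were positively correlated from cell to cell. Over the 45 gene pairs, the median over libraries of the Pearson correlation across AT2-like cells was above 0 in all 45, and it was above 0 in every library for 41. The medians ran from 0.0932 (Sftpc with Lpcat1) to 0.736 (Sftpc with Slc34a2), with 0.398 in the middle. These cells, 42 to 212 per library, share their library and their range of depths, so the values are a description.

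The second comparison took the epithelial cells outside the AT2-like class, which are the AT1-like, club-like and ciliated-like cells, the cells with both marker sets and the unnamed clusters. None of the 10 genes passed the edgeR threshold there (0 of 10), while 10.3% of 14898 genes did. At an unadjusted p under 0.05 there were 3, Sftpd, Napsa and Lpcat1, and 4078 of all genes tested. Their directions were mixed, with 9 point estimates above 0 and that of Sftpd below.

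Lpcat1 stood at 303 and 318 CPM against 471, 352 and 454 CPM, and the groups did not overlap. Its log2 fold change was 0.46, SE 0.13, with an edgeR adjusted p of 0.0645. Napsa stood at 338 and 383 CPM against 732, 407 and 541 CPM, also without overlap (log2 fold change 0.63, SE 0.21, edgeR adjusted p 0.0997). Sftpd went the other way without overlap, at 275 and 312 CPM against 251, 98.6 and 163 CPM (log2 fold change -0.79, SE 0.31, adjusted p 0.145). Of the 14898 genes tested in this sum, 6772 were without overlap in either direction, so the lack of overlap does not set these genes apart. Without KO2, Sftpa1, Sftpc, Napsa and Lpcat1 were called higher, with log2 fold changes of 0.68, 0.47, 0.82 and 0.58, and without KO1, Sftpd was called lower at -1.16. DESeq2 called Napsa (adjusted p 0.0356) and Lpcat1 (0.0269) higher. In edgeR, keeping doublets gave Napsa and Lpcat1 higher and Sftpd lower, the filter of 1000 genes gave Lamp3, Napsa and Lpcat1 higher, and no low-count filter gave Lpcat1 higher. The make-up of this sum differed, since cells with both marker sets were 59 and 71 of its 754 and 606 Het cells and 106, 132 and 157 of its 290, 333 and 364 KO-labelled cells. Other parts went the opposite way, with 107 and 104 against 16, 15 and 30 cells in the cluster led by endothelial genes and 203 and 128 against 25, 41 and 4 cells in an unnamed cluster with 0.128 times the median depth.

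The difference between the 2 comparisons was tested as a genotype by class term with the library as a block. The other epithelial sum includes the cells with both marker sets and the unnamed clusters. Cells with both marker sets held 1484 Sftpc UMIs per cell. AT1-like, club-like and ciliated-like cells held 36.3, 30.7 and 40.0. The term is therefore not one of AT2-like cells against AT1 and airway cells alone. For 9 of the 10 genes the KO-labelled change was more negative in AT2-like cells than in the other epithelial cells, and of 13391 genes 5.48% were called, 3.2% in that direction. For Sftpc the term was -1.03 on the log2 scale (SE 0.07, edgeR adjusted p 3.4e-47), and for Napsa it was -0.93 (SE 0.11, edgeR adjusted p 1.3e-13). Sftpd was the exception, at -0.26 (SE 0.12, adjusted p 0.244). Its change in AT2-like cells was therefore not shown to differ from its change in the other epithelial cells. The p-values of these terms are those of a normal distribution for the term over its SE. The spread was thus taken from all genes together, and such small p-values do not measure how far a single gene varied between the embryos. Without KO2 the Sftpd term was -0.63 and passed (adjusted p 3.3e-05), and without KO1 it was 0.00070. When sums were scaled by library size alone, the share of higher calls among all genes went from 41.7% to 79.1% and the median of all genes to 0.20, and 8 of the 10 terms were still called, all but Sftpd and Ctsh. The Ctsh term also missed the threshold without Het1 (adjusted p 0.117), without KO1 (0.0679) and without KO3 (0.0983).

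**Figure D4:**
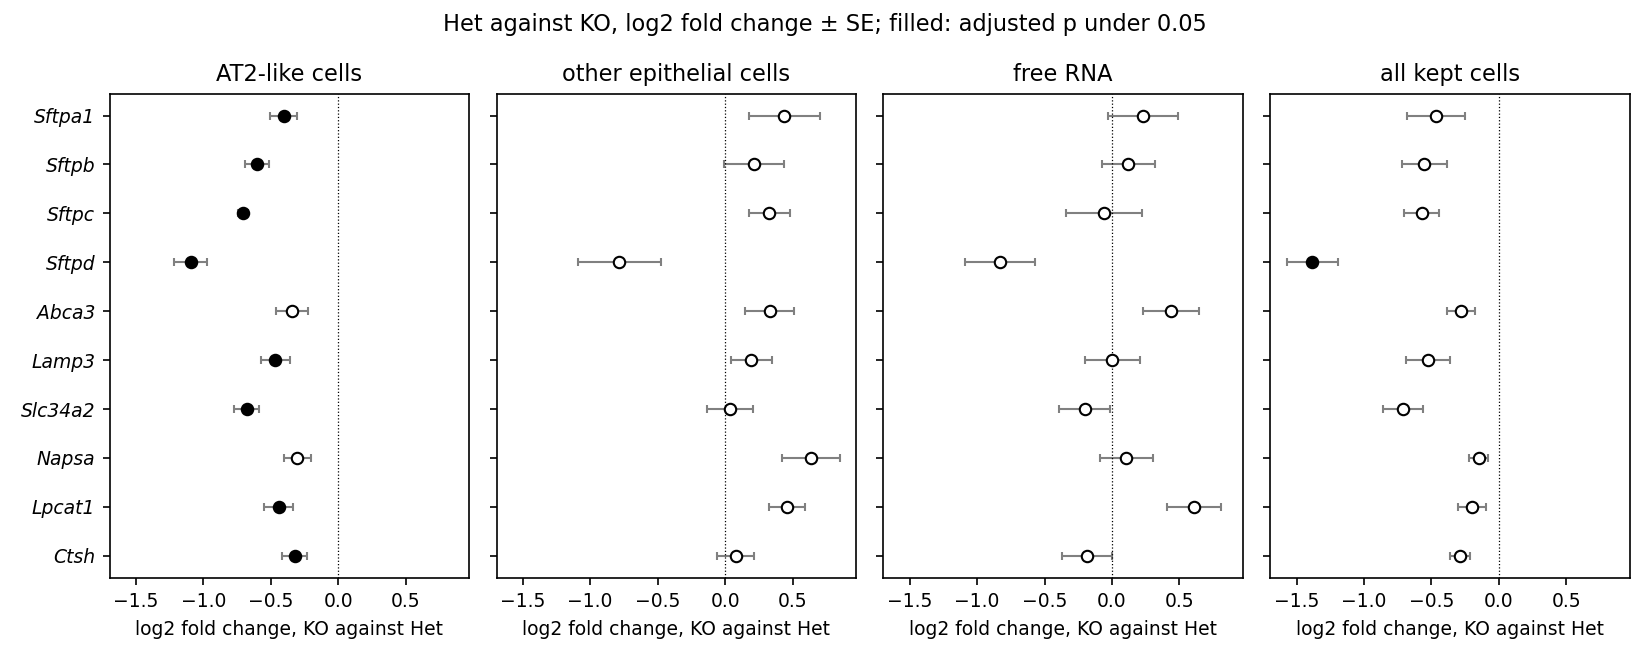
Log2 fold change of the 10 genes, KO-labelled against Het (horizontal axis, whiskers of 1 SE), in AT2-like cells, other epithelial cells, free RNA and all kept cells. Filled points passed an edgeR adjusted p of 0.05, which 8 genes did in AT2-like cells and Sftpd did in all kept cells.

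Sftpd was the gene lower across the most classes. Its KO-labelled mean was below the Het mean in 10 of the 10 places measured, and every KO-labelled library was below both Het libraries in 6 of them. Over all genes tested, 18.4% were lower without overlap in AT2-like cells and 23.7% over all kept cells, and this share was not taken in the other classes. The 10 places include the free RNA, the mesenchymal lineage (120 Sftpd UMIs in all) and neutrophil-like cells (24), so they are not separate observations. Among the 6 were the endothelial lineage and macrophage-like cells, where Sftpd had 70 and 44 UMIs in all and 0.875 and 0.889 UMIs per 100 Sftpc UMIs, with ranges overlapping that of the free RNA, so those 2 are read as background. For the other 9 genes the latter count was 0 (Sftpa1) to 3 (Lpcat1 and Ctsh). In club-like cells Sftpd was at 388 and 611 CPM against 291, 170 and 294 CPM. In ciliated-like cells it was at 237 and 296 CPM against 105, 73.8 and 120 CPM. In cells with both marker sets it was at 572 and 562 CPM against 315, 113 and 153 CPM, but this class sat in different clusters in each genotype. Inside its Fabp12 cluster Sftpd was at 645 and 651 CPM against 705, 628 and 559 CPM, and inside its Zmynd15 cluster at 240 and 114 CPM against 309, 128 and 109.9 CPM, so the groups overlapped in both. These CPM values use the total of each sum without TMM, and the classes other than AT2-like were not tested one by one.

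**Figure D5:**
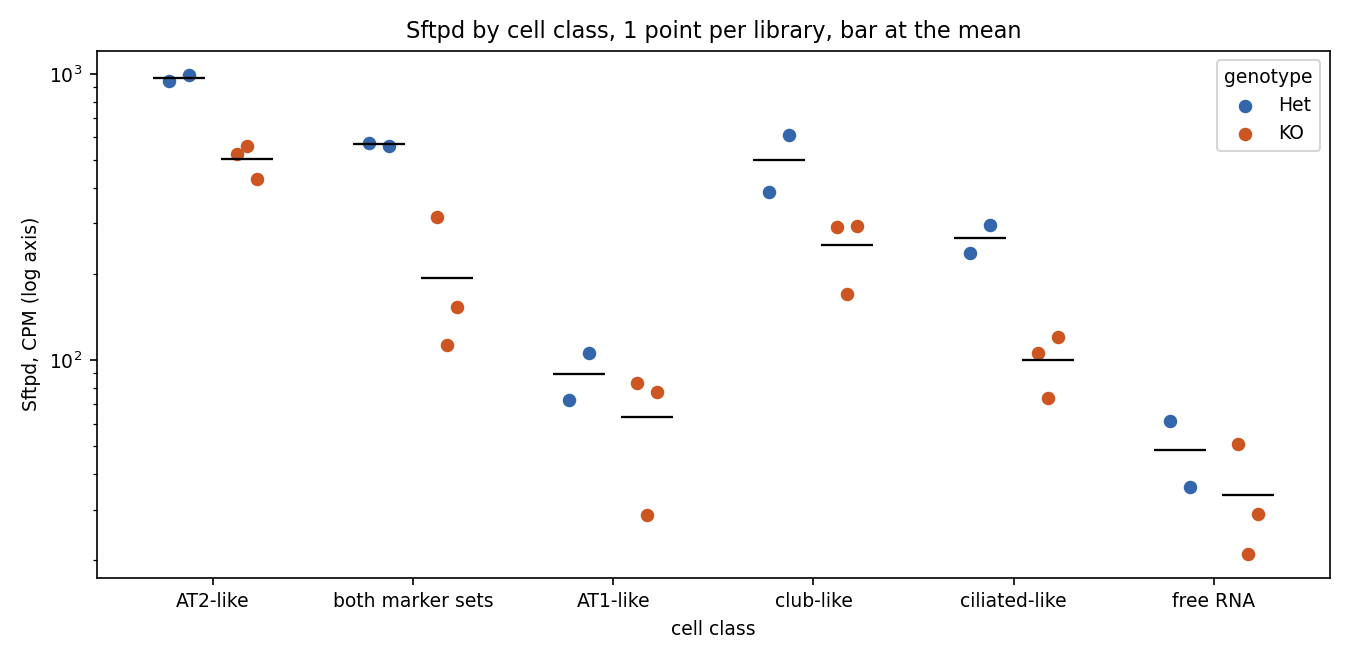
Level of Sftpd (CPM, log axis) in 5 cell classes and in free RNA, 1 point per library, coloured by genotype, with bars at the mean. KO-labelled points lie below both Het points in AT2-like cells, cells with both marker sets, club-like cells and ciliated-like cells, and overlap with them in AT1-like cells and in free RNA. The cells with both marker sets sat in different clusters in each genotype, and inside the 2 largest of these clusters the Sftpd groups overlapped.

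In the free RNA itself, 0 of the 10 genes passed the edgeR threshold, and 0.746% of 8579 genes did. At an unadjusted p under 0.05 there were 2, Sftpd and Lpcat1, and 1054 of all genes tested. Sftpc was nearly level, at 6984 and 5913 CPM against 7009, 6178 and 5348 CPM (log2 fold change -0.06, SE 0.28, edgeR adjusted p 0.951). Sftpd stood at 66.2 and 40.2 CPM against 37.7, 25.3 and 29.1 CPM (log2 fold change -0.83, SE 0.26, adjusted p 0.198). Lpcat1 stood at 107 and 96.0 CPM against 134, 181 and 150 CPM (log2 fold change 0.60, SE 0.20, adjusted p 0.216). With TMM scaling 2 of the 10 genes were lower and 2 higher without overlap, Sftpd and Lpcat1 among them. Of the 8579 genes tested, 2641 were without overlap in either direction. Whether the free RNA and the AT2-like sums differed in their changes was not tested. Without KO1, Sftpd was called lower (-1.02, adjusted p 0.0203) and Lpcat1 higher (0.69, adjusted p 0.0182).

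Over all kept cells of a library, all 10 genes had a point estimate below 0 and 9 had no overlap of the groups, Lpcat1 being the exception. Among all 17730 genes, 23.7% were lower without overlap. Sftpd was the 1 gene of the 10 called by edgeR, while 4.34% of all genes were called and 3.11% called lower. It stood at 132.9 and 121 CPM against 59.5, 36.4 and 50.3 CPM (log2 fold change -1.38, SE 0.19, edgeR adjusted p 0.0253). The call was lost without Het1 (adjusted p 0.188), without Het2 (0.168) and without KO3 (0.0774), with the replicate block (0.116) and with sex as a covariate (0.196), and the log2 fold change was between -1.55 and -1.21 in 13 alternatives. Sftpc stood at 12607 and 10145 CPM against 7559, 6861 and 8527 CPM (log2 fold change -0.57, SE 0.13, edgeR adjusted p 0.0688). DESeq2 called 6 of the 10 lower, Sftpb, Sftpc, Sftpd, Lamp3, Slc34a2 and Ctsh, with an adjusted p of 0.00058 for Sftpc, and 2164 genes in all. In such sums, fewer AT2-like cells and less RNA per cell cannot be told apart.

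Other genes of surfactant metabolism were read from the AT2-like comparison by list, in which 3.77% of all genes tested were called lower and the median of all genes was 0.02. Of 13 tested genes of a list around choline and phospholipid metabolism, 6 fell and 0 rose, with a median of -0.51 and 9 point estimates below 0. Those that fell were Gpam, Pla2g1b, Agpat2, Chpt1, Pgs1 and Prdx6. Pcyt1a, Pcyt1b, Chka and Chkb, also on the list, were not called, so the count is not one of phosphatidylcholine synthesis alone. Gpam, which starts glycerolipid synthesis, stood at 259 and 264 CPM against 137, 116 and 139 CPM (log2 fold change -0.99, edgeR adjusted p 1.7e-05). Pla2g1b, a secreted phospholipase, fell by 0.94 on the log2 scale (edgeR adjusted p 3.2e-05) and Agpat2, an acyltransferase of phosphatidic acid synthesis, by 0.79 (adjusted p 0.0315).

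Of 13 tested genes of fatty acid synthesis and its regulators, 6 fell and 0 rose, and all 13 point estimates were below 0. Scd1, the stearoyl-CoA desaturase, stood at 1394.5 and 1261 CPM against 363, 396 and 476 CPM (log2 fold change -1.68, edgeR adjusted p 7.2e-10). The fatty acid binding protein Fabp5 fell by 1.48 (edgeR adjusted p 3.7e-09) and the elongase Elovl1 by 1.19 (adjusted p 2.2e-05). Scd1 and Cebpa are also on the marker list that named the AT2-like class, and Scd1 and Fabp5 are among the leading genes of the Retnla cluster, which was rare in the KO-labelled libraries.

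In the list of lysosome-related organelles, 3 of 16 tested genes fell and 0 rose. They were Rab27a, a small GTPase of secretory organelles (log2 fold change -0.84), the lysosomal membrane protein Lamp1 (-0.67) and the tetraspanin Cd63 (-0.40). In the secretion list 1 of 8 fell, the vesicle fusion protein Vamp8 at -0.60, and 0 rose, while the median of the list was 0.06. In the list of regulators 3 of 14 fell, Foxa1 (-0.61), Cebpa (-0.51) and Elf5 (-0.47), and 0 rose. Of a list for surfactant clearance by macrophages 1 of 6 tested genes fell in AT2-like cells, the lysosomal lipase Lipa at -0.94. This list was not tested in macrophage-like cells. All genes named here had an edgeR adjusted p of at most 0.0379.

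These counts depended on the setting. With library size alone, 2 choline genes, 5 fatty acid genes, 2 trafficking genes, 1 secretion gene, 0 regulators and 1 clearance gene fell, and 1 gene, Rab38, rose. With the sex covariate the counts that fell were 2, 4, 0, 0, 0 and 1. DESeq2 left 2 choline genes and 0 regulators called. In the Acss3 cluster alone the counts that fell were 1 (Pla2g1b), 2 (Elovl1 and Fasn), 0, 0, 0 and 0, with 0.525% of all genes called lower. With the cells of both marker sets added they were 9, 10, 4, 2, 3 and 2, and with all epithelial cells 3, 3, 0, 0, 0 and 1. The shares of all genes called lower were then 7.64% and 5.7%. These cell sets were chosen after seeing the data. Among the listed genes, Csf2ra was called higher with the cells of both marker sets added and Etv5 with all epithelial cells. Rab38 was also called higher without KO1 and at Leiden resolution 2. With 1 library left out, the choline count was 3 without Het1, 2 without Het2, 3 without KO1 and 2 without KO2. The count of regulators was 0 without Het1, Het2 or KO2, and was lower by 1 without KO1 or KO3. Fatty acid genes numbered 4 without Het1, clearance 0 without Het1, secretion 0 without Het2, and trafficking 2 without Het1, Het2, KO2 or KO3.

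The genes with the most similar pattern over 45 sums (9 classes in 5 libraries, log2 of CPM plus 1) were Pla2g1b, Egfl6, Tmem243, Cxcl15 and Gm29966, with Pearson correlations of 0.947 to 0.965 with the mean of the 10 genes, among 8889 genes. The 5 libraries share their classes, so these are descriptions. Cxcl15, a lung chemokine, stood at 6019 and 6045 CPM against 3701, 3437 and 3687 CPM in AT2-like cells (log2 fold change -0.74, edgeR adjusted p 5.0e-07), and Tmem243 fell by 0.49 (adjusted p 0.0125). Egfl6 did not pass, at 473 and 465 CPM against 557, 492 and 476 CPM (log2 fold change 0.11, adjusted p 0.676), nor did Gm29966 (-0.11, adjusted p 0.832). Egfl6 and Cxcl15 are on the AT2 marker list. Among the 10 genes themselves, the correlation of each with the other 9 was lowest for Ctsh (0.786) and Sftpd (0.806) and highest for Sftpc (0.962).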

How the data were processed

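Single-cell RNA was counted in 5 lungs (2 Het, 3 KO-labelled). Per the submitters' processing notes, Cell Ranger 4.0.0 and build mm10 were used, and the authors deposited raw UMI counts for each gene in each barcode. The barcode filter is not given in the sources used here.

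Cells needed 500 or more genes and no more than 15% mitochondrial UMIs, and simulated doublets marked 78 to 186 barcodes per library for removal. Cells were clustered (scanpy 1.11.5, Leiden resolution 1, 30 components, 15 neighbours) without the 10 genes, and clusters were named from marker lists. A class needs at least 3 markers. These names were rebuilt here, so differences from the study's own classes may arise from them.

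Cells are not replicates, so counts were summed per library and tested with edgeR 4.0.16 quasi-likelihood fits (TMM, low-count filter, two-sided, Benjamini-Hochberg over all genes tested, threshold 0.05), checked on simulated data. The SE of an edgeR log2 fold change is its absolute value over the square root of the quasi-likelihood F statistic, and not a separately fitted error. CPM were computed from these sums. Free RNA was read from red-cell barcodes (haemoglobin above 50% of UMIs, fewer than 500 genes). The 10 genes are all named. Of each pathway list, up to 3 called genes per direction with the largest change are named, and of the similarity list the 5 highest correlations. Genes and lists were chosen with earlier results of these data known. Alternatives were DESeq2 1.42.0, other scaling, filters, resolutions, cell sets, a replicate block, sex and each library left out.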

Additional observations from a re-analysis of the deposited data

Results flagged for a closer look

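The KO-labelled against Het difference was not the same in AT2-like cells and in the other epithelial cells for 9 of the 10 genes. The edgeR genotype by class terms, AT2-like minus other epithelial on the log2 scale, were -0.81 for Sftpa1, -0.79 for Sftpb, -1.03 for Sftpc, -0.67 for Abca3, -0.67 for Lamp3, -0.72 for Slc34a2, -0.93 for Napsa, -0.91 for Lpcat1 and -0.41 for Ctsh. Adjusted p was at most 0.00384 for each, with the spread taken from all genes together. The Ctsh term missed the threshold in 4 of 8 alternatives, with library size alone (adjusted p 0.178), without Het1 (0.117), without KO1 (0.0679) and without KO3 (0.0983). The comparison sum holds the cells with both marker sets, which were a larger share of the KO-labelled epithelial cells. It also holds the unnamed clusters, so its counts are not those of AT1 and airway cells alone. The part of this make-up in the terms was not tested.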

How the results depend on the processing

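Of 833 alternative values, 691 kept their direction and their side of the threshold, 75 lost and 37 gained a call or moved in count by over 1.5 times, and 30 changed sign. Called genes in AT2-like cells numbered 625, and 255 with DESeq2, 306 to 641 with each library left out, 194 with the sex covariate and 323 with mixed cells left out. With settings chosen after seeing the data they numbered 1570 (both marker sets added), 1336 (all epithelial cells) and 40 (the Acss3 cluster alone). In other epithelial cells the 1534 calls became 518 to 1423 with each library left out, 971 with sex and 172 without mixed cells. In free RNA the 64 calls became 30 with library size alone, 319 with no low-count filter, 0 to 236 with each library left out and 0 with sex (edgeR, 555 at an unadjusted p under 0.05, and 53 calls by DESeq2 without sex). Over all kept cells the 769 calls became 2164 with DESeq2, 502 with no filter, 2 to 883 with each library left out (2 without Het1, 3 without Het2, 332 without KO2, 125 without KO3) and 0 with sex (edgeR, 2606 unadjusted). The free RNA count was 0 without Het1 (edgeR, 616 unadjusted), 14 without Het2, 236 without KO1 and 40 without KO2. In AT2-like cells it was 306 without Het1 and without Het2, and in other epithelial cells 607, 518 and 834 without Het1, Het2 and KO2. The 734 genotype by class calls became 289 to 626 with each library left out (289 without Het1, 378 without Het2) and 335 with sex.

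In AT2-like cells, Sftpa1 changed sign in the Acss3 cluster alone (0.041), and with all epithelial cells so did Abca3 (0.021), Napsa (0.22) and Lpcat1 (0.088). In other epithelial cells, Slc34a2 was -0.012 at resolution 2 and Ctsh -0.064 without mixed cells. In free RNA, library size alone gave Sftpc 0.18, Slc34a2 0.0072 and Ctsh 0.035, and sex gave Sftpa1 -0.0998 and Napsa -0.093. Lamp3 was -0.022 with no filter and -0.35 with over 80% haemoglobin. The cause was not tested. With each library left out in turn, sign changes gave ranges of -0.038 to 0.42 for Sftpb, -0.079 to 0.21 for Slc34a2 and -0.044 to 0.22 for Ctsh in other epithelial cells. In free RNA they were -0.091 to 0.39 for Sftpa1, -0.0092 to 0.24 for Sftpb, -0.20 to 0.047 for Sftpc, -0.17 to 0.195 for Lamp3 and -0.032 to 0.19 for Napsa. The genotype by class term of Sftpd ran from -0.63 to 0.00070, and the difference in share of AT2-like cells with an Abca3 UMI from -5.17 to 2.29 percentage points. AT2-like clusters taken one by one had too few cells in some libraries for the planned fit, which gave no value. The fit of the Acss3 cluster given above was not planned. It admitted 17 cells in Het2, below the minimum of 20 cells per library used for the cell classes.

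The labels do not say that a replicate number pairs embryos, and with 2 numbers in common the data were not taken to show it. Same-numbered embryos had deviations correlated at 0.07 and 0.03 (replicates 1 and 2) in AT2-like sums, 0.29 and -0.19 in other epithelial cells, 0.20 and 0.15 in free RNA and -0.18 and -0.28 over all kept cells. With a replicate block the calls numbered 603 in AT2-like cells, 1990 in other epithelial cells, 361 in free RNA and 8 over all kept cells. Sftpc (0.034) and Lamp3 (-0.069) in free RNA and Slc34a2 (-0.060) in other epithelial cells changed sign under the replicate block.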
